A study of Mus musculus with 12 samples.

Results

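Csf1r, Irf8, Ly86, Ccl9 and Pld4 are myeloid genes that stood out in mouse LSK cells, the Lin- Sca-1+ c-Kit+ bone marrow fraction in which stem cells and early progenitors of the blood are found. The 5 genes were chosen by their measured pattern in these same libraries, a higher level in Tet2KO than in the other groups, and were found by symbol among the 46517 genes of the count table. All 5 were among the 17842 genes that passed the filter on low counts. Because their levels chose them, the levels and fold changes of these 5 genes are given as a description and carry no test.

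RNA was sequenced from 12 libraries, 3 for each of the groups WT, p300KO, Tet2KO and p300KO_Tet2KO, from mice aged 8 to 10 weeks that had received poly(I:C) 2 weeks earlier. By the study's methods WT mice were Ep300 fl/fl, p300KO mice were Mx1-Cre;Ep300 fl/fl, Tet2KO mice were Ep300 fl/fl;Tet2-/- and p300KO_Tet2KO mice were Mx1-Cre;Ep300 fl/fl;Tet2-/-, while the deposited design text names Mx1-Cre in front of the whole set of groups. If the methods hold, loss of p300 and presence of Mx1-Cre cannot be told apart here. Mx1-Cre acts in cells that respond to interferon, blood and other tissues alike, and Tet2-/- is a germline deletion. Total counts ran from 18773903 to 79573664 per library.

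Csf1r encodes the receptor for the cytokine CSF1 and marks cells that enter the monocyte and macrophage branch. Irf8 is a transcription factor that directs progenitors towards monocytes and dendritic cells and away from granulocytes. Genes of this kind are known to be transcribed at a low level in multipotent progenitors before a lineage is chosen, which is called priming. TET2 oxidises methylated cytosine in DNA, and p300 acetylates histones at enhancers.

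The deleted genes were examined first. Ep300 RNA was 311 ± 27.5 CPM (counts scaled to library size, SD, n = 3) in WT, 336 ± 20.2 in Tet2KO, from 176 to 233 in the 3 p300KO libraries and 173 ± 6.48 in p300KO_Tet2KO. Tet2 RNA was 132 ± 10.2 CPM in WT and 163 ± 21.3 in p300KO, and it was 47.7 ± 9.0 CPM in Tet2KO. In the libraries labelled p300KO_Tet2KO the level of Tet2 was 125 ± 22.2 CPM, and each of them, from 101 to 145, lay above each Tet2KO library. The interval of their difference from WT included 0 (log2 fold change -0.08, 95% interval -0.41 to 0.26), and they were higher than Tet2KO by 1.38 ± 0.16 (SE, adjusted p = 0.000571, edgeR quasi-likelihood test). Tet2 RNA therefore goes against the label of this group, and every direction drawn below from the libraries labelled p300KO_Tet2KO carries that limit.

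Libraries also differed in sex-linked RNA. Xist RNA was abundant and Y-linked RNA nearly absent in p300KO replicate 3, Tet2KO replicate 3, and the libraries labelled p300KO_Tet2KO replicates 1 and 3, while Tet2KO replicate 1 held both, with 3279 CPM of Xist and 177 CPM of Y-linked RNA. Whether that library holds RNA of more than 1 mouse was not tested, and if it does, the n = 3 of Tet2KO is not 3 single mice. The 7 other libraries, all 3 of WT among them, had Y-linked RNA and under 5 CPM of Xist. Counts of mitochondrial genes made up 0.503% of p300KO_Tet2KO replicate 2 and from 1.18% to 1.52% of each other library. The 10 genes of the LSK gate summed to 2185 to 3099 CPM in every library, but single genes of this sum moved apart. Flt3 was 689 ± 13.3 CPM in WT, 445 ± 134 in Tet2KO, 347.5 ± 18.7 in p300KO and 234 ± 34.2 in the libraries labelled p300KO_Tet2KO. Its last level was called lower than WT (adjusted p = 0.000344, edgeR quasi-likelihood test). Kit was 785 ± 71.7, 875 ± 135, 797 ± 35.4 and 948 ± 93.1 CPM in the same order.

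Csf1r (ENSMUSG00000024621.14, mm10 chromosome 18, 61100598 to 61132149, plus strand) was 33.4, 36.5 and 40.8 CPM in WT replicates 1 to 3. It was 107, 57.1 and 123 CPM in Tet2KO, 47.6, 39.3 and 63.2 in p300KO, and 52.0, 37.5 and 44.6 in the libraries labelled p300KO_Tet2KO. All 3 Tet2KO libraries were above all WT libraries and above all libraries labelled p300KO_Tet2KO, but Tet2KO replicate 2 lay below p300KO replicate 3. The mean level was 2.6-fold higher in Tet2KO than in WT (95% interval 1.79 to 3.77), and the libraries labelled p300KO_Tet2KO were at 1.21-fold of WT (0.84 to 1.75). Against Tet2KO, they were 2.15-fold lower.

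Irf8 (ENSMUSG00000041515.8, chromosome 8, 120736358 to 120756694, plus strand) was 132, 148 and 185 CPM in WT and 223, 155 and 351 CPM in Tet2KO. The groups overlapped, because Tet2KO replicate 2 lay below WT replicate 3. p300KO libraries held 101, 114 and 163 CPM, and the libraries labelled p300KO_Tet2KO held 90.9, 93.3 and 110. The latter were below every WT library and overlapped p300KO. On the log2 scale the difference was 0.65 ± 0.25 (SE) for Tet2KO against WT and -0.66 ± 0.25 for the libraries labelled p300KO_Tet2KO against WT. The 95% interval of the latter, -1.21 to -0.11, is that of a single gene with no adjustment, and Irf8 was not among the genes called lower in that comparison.

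Ly86 (ENSMUSG00000021423.5, chromosome 13, 37345208 to 37419036, plus strand) encodes MD-1, the secreted partner of the toll-like receptor homolog RP105. It was 8.85, 8.60 and 9.15 CPM in WT, the narrowest spread of the 5 genes in that group, and 11.1, 9.87 and 19.8 CPM in Tet2KO. All 3 Tet2KO libraries were above the other 9, though replicates 1 and 2 by little. p300KO libraries were all below WT, at 3.99, 4.17 and 5.94 CPM, and the libraries labelled p300KO_Tet2KO were at 3.19, 1.67 and 4.78 CPM. The last rest on 61, 113 and 117 counts. The log2 difference was 0.61 for Tet2KO against WT (95% interval -0.12 to 1.34), -0.92 for p300KO against WT (-1.67 to -0.18) and -1.49 for the libraries labelled p300KO_Tet2KO against WT (-2.26 to -0.73). Ly86 was the only one of the 5 whose 3 p300KO libraries all lay under WT, against 13.2% of all genes tested.

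Ccl9 (ENSMUSG00000019122.8, chromosome 11, 83572919 to 83578636, minus strand) encodes a chemokine of the CC family made by myeloid cells. WT libraries held 55.5, 54.3 and 64.2 CPM, and Tet2KO libraries 118, 67.8 and 97.9. The p300KO libraries, at 61.2, 65.6 and 76.7 CPM, overlapped both of these groups. The libraries labelled p300KO_Tet2KO held 43.7, 41.9 and 45.6 CPM, the 3 lowest values of the 12. On the log2 scale they differed from WT by -0.41 ± 0.16 (SE) and from p300KO by -0.63 ± 0.16, while Tet2KO differed from WT by 0.71 ± 0.16.

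Pld4 (ENSMUSG00000052160.6, chromosome 12, 112760655 to 112768990, plus strand) encodes an endolysosomal exonuclease that digests single-stranded nucleic acids. It was 10.4, 11.1 and 14.0 CPM in WT and 27.8, 34.9 and 34.9 CPM in Tet2KO. The p300KO libraries held 12.2, 12.8 and 18.7 CPM and the libraries labelled p300KO_Tet2KO 11.2, 12.6 and 14.7. Tet2KO stood clear of the other 9 libraries, and the remaining 3 groups overlapped. The level was 2.76-fold higher in Tet2KO than in WT (95% interval 2.10 to 3.63), and the libraries labelled p300KO_Tet2KO were at 1.09-fold of WT (0.83 to 1.43).

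**Figure D1:**
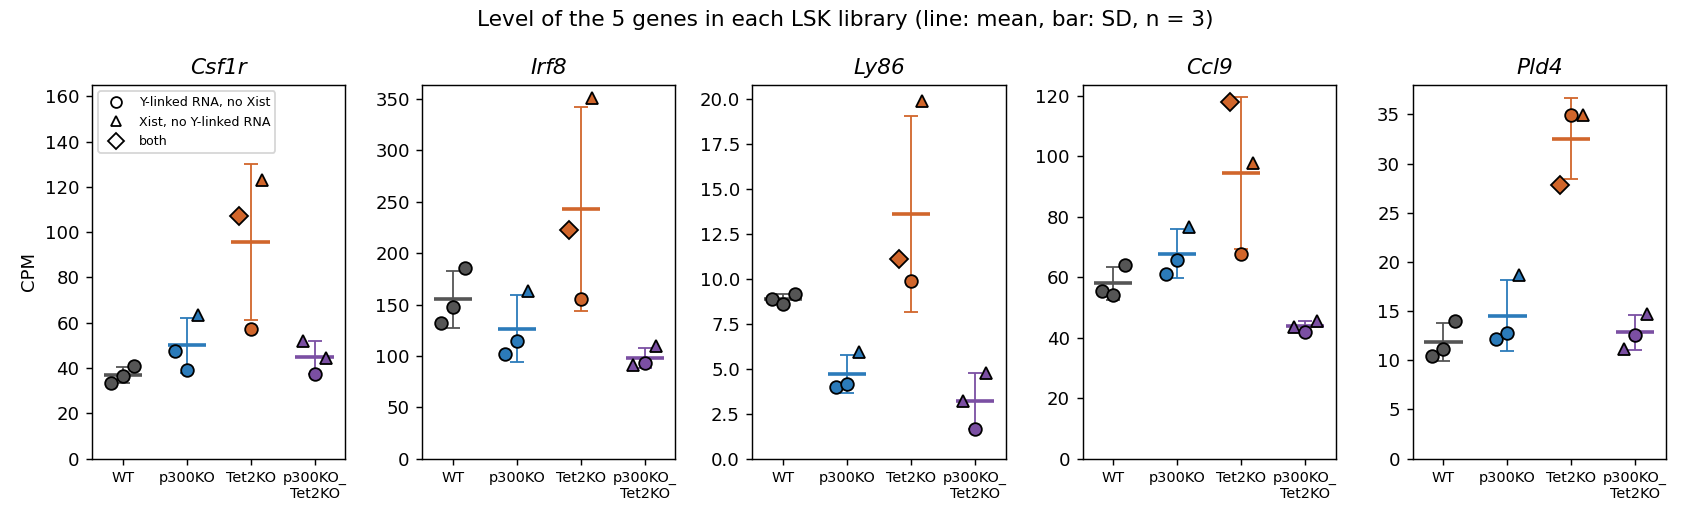
CPM (y axis, linear, from 0) of Csf1r, Irf8, Ly86, Ccl9 and Pld4 in each library of the 4 groups (x axis), with the group mean as a line, the SD as a bar (n = 3) and the symbol giving the sex-linked RNA of the library. Pld4 in Tet2KO, at 27.8 to 34.9 CPM, lies clear of every other library, whereas Irf8 in Tet2KO replicate 2, at 155 CPM, lies within the WT libraries.

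The description of the 5 genes as raised only in Tet2KO therefore holds in part. Ly86 and Pld4 had all 3 Tet2KO libraries above the other 9, as had 1.58% of all genes tested. Tet2KO lay above WT without overlap for 4 of the 5, all but Irf8, and for 11% of all genes. It lay above the libraries labelled p300KO_Tet2KO for 5 of 5, against 10.1% of all genes. Those libraries were all below WT for Irf8, Ly86 and Ccl9, against 13.8% of all genes. These patterns are what the genes were chosen for, so nothing is read from the counts.

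The place of the 5 genes among the edgeR calls (adjusted p under 0.05) is given as a description only, because the same values selected them, and it is no test of them. Csf1r and Pld4 were among the 86 genes, or 0.482% of those tested, called higher in Tet2KO than in WT. The number was 1 of 5, Pld4, without WT replicate 1, without WT replicate 2, without Tet2KO replicate 1 or without Tet2KO replicate 3, and 3, with Ccl9 added, without Tet2KO replicate 2. The number called higher over all genes moved too, to 28, 30, 35, 80 and 153 in the same order. All 5 were among the 515 genes (2.89%) called lower in the libraries labelled p300KO_Tet2KO than in Tet2KO, and 3 of them, Ly86, Ccl9 and Pld4, without p300KO_Tet2KO replicate 2. Calls over all genes moved in this comparison as well when 1 library was left out, as given at the end. When only the libraries compared were fitted, 1 of the 5, Pld4, was called higher in Tet2KO than in WT. In the same kind of fit, 4 of them, all but Csf1r, were called lower in the libraries labelled p300KO_Tet2KO than in Tet2KO. Selection on high Tet2KO levels favours the counts of both comparisons, and both use the same Tet2KO libraries. Against WT, Ly86 alone was among the 877 genes (4.92%) called lower in the libraries labelled p300KO_Tet2KO. None of the 5 was among the 509 genes (2.85%) called lower in p300KO than in WT. None was among the genes called higher (0.347%) or lower (0.213%) in the libraries labelled p300KO_Tet2KO than in p300KO.

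Whether the difference that goes with the Tet2KO label changes when p300 is deleted is estimated by the interaction, the difference between p300KO_Tet2KO and p300KO minus that between Tet2KO and WT. It was -1.54 (95% interval -2.29 to -0.79) for Csf1r on the log2 scale and -1.02 (-1.79 to -0.24) for Irf8. For Ly86 it was -1.18 (-2.24 to -0.12), for Ccl9 -1.34 (-1.84 to -0.84) and for Pld4 -1.64 (-2.20 to -1.08). The intervals cover 1 gene each and are not adjusted for the number of genes or for the choice of these 5. Over the whole table edgeR called 0 genes (0% called lower) for the interaction, with 1268 at an unadjusted p under 0.05. limma-voom called 0 as well, and the DESeq2 Wald test called 49.

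**Figure D2:**
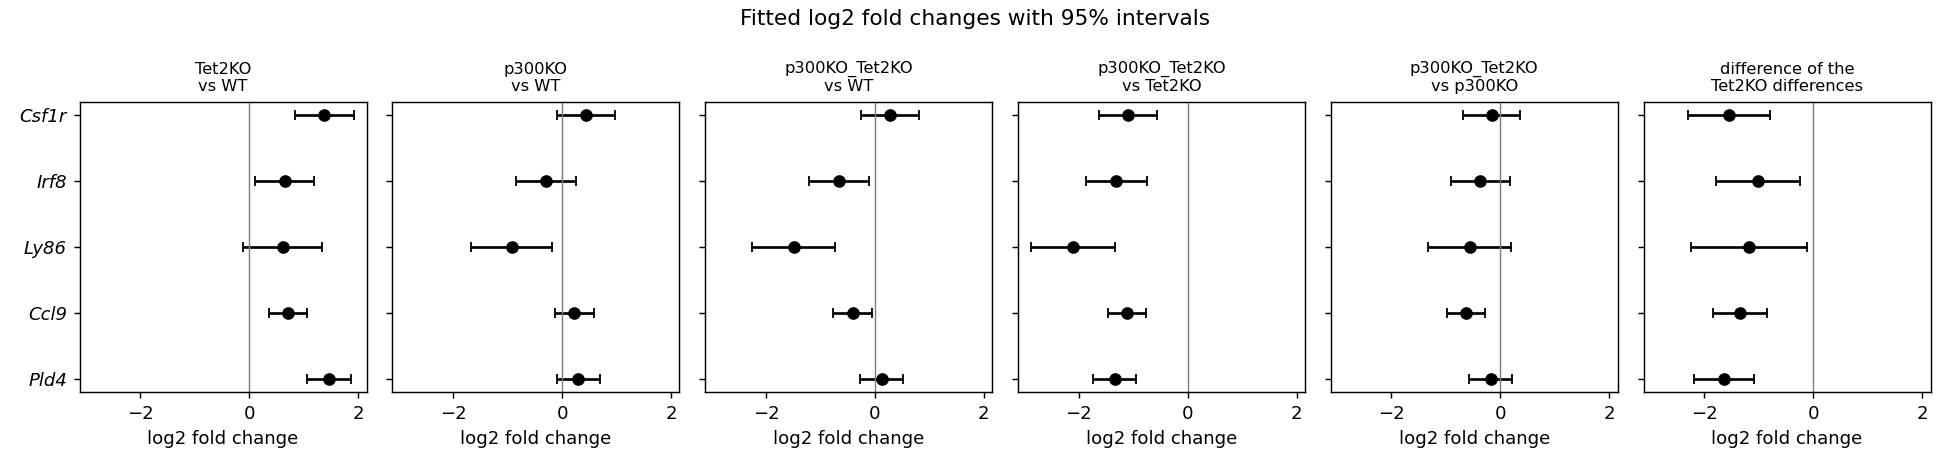
Fitted log2 fold change (x axis) of each of the 5 genes (rows) in the 5 comparisons and the interaction (panels), with 95% intervals as bars. Intervals for Tet2KO vs WT lie above 0 except that of Ly86, which reaches down to -0.12, and those for p300KO_Tet2KO vs Tet2KO lie below 0 for each of the 5 genes.

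The 5 genes split by where the libraries labelled p300KO_Tet2KO lay. Csf1r and Pld4 had unadjusted 95% intervals that included the WT level, whereas those of Irf8, Ly86 and Ccl9 lay under it. Set against p300KO, the intervals of Csf1r (-0.69 to 0.37), Irf8 (-0.92 to 0.18), Ly86 (-1.33 to 0.20) and Pld4 (-0.57 to 0.22) included 0, and that of Ccl9 (-0.99 to -0.28) did not. Per kilobase of exon, Irf8 was the most abundant in WT at 22.0 CPM per kb, with Ccl9 at 19.0, Csf1r at 6.39, Pld4 at 3.42 and Ly86 at 2.44. In Tet2KO these levels were 34.4 for Irf8, 31.0 for Ccl9, 16.6 for Csf1r, 9.40 for Pld4 and 3.74 CPM per kb for Ly86, the same order as in WT.

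Sex-linked RNA and depth each moved with these values only in part. Replicate 3 had the highest level of all 5 genes in WT and in p300KO, of 3 in Tet2KO and of 4 in the libraries labelled p300KO_Tet2KO, and the 4 libraries numbered 3 had totals of 18838681 to 24107452 counts. The part of depth in these levels was not tested beyond a fit with a depth covariate. The shallowest of all, p300KO_Tet2KO replicate 1 with 18773903 counts, was the lowest of its group for Irf8 and Pld4 and the highest for Csf1r. In p300KO, replicate 1 had 25981738 counts against 70530670 in replicate 2. That replicate 1 was the lowest of its group for each of the 5 genes except Csf1r. Tet2KO replicates 1 and 2 had like totals of 56210721 and 55309948 and Csf1r at 107 and 57.1 CPM. Levels beside sex-linked RNA were mixed as well. The library labelled p300KO_Tet2KO replicate 1 had 6452 CPM of Xist. It was the lowest of its group for Irf8 and Pld4 and the highest for Csf1r. Replicate 2 of that group, with 3.01 CPM of Xist, was the lowest for Csf1r, Ly86 and Ccl9. WT replicate 3 was the highest of WT though no WT library had abundant Xist RNA. Tet2KO replicate 2, the only Tet2KO library without Xist RNA, was the lowest of its group for each of the 5 genes except Pld4. Among the 7 libraries without Xist RNA, a set defined after the data were seen, it can be compared with all 3 WT libraries. There it was above all of them for Csf1r (57.1 against at most 40.8 CPM), Ly86 (9.87 against 9.15), Ccl9 (67.8 against 64.2) and Pld4 (34.9 against 14.0), and inside their range for Irf8 (155 against 132 to 185).

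In a fit over those 7 libraries, where the lone Tet2KO library and the lone library labelled p300KO_Tet2KO are assumed to vary like the others, the log2 difference of Tet2KO from WT fell from 1.38 to 0.63 for Csf1r. It was 0.00 for Irf8 (-0.002166 before rounding), 0.15 for Ly86 and 0.22 for Ccl9. For Pld4 it was 1.56, as large as with all libraries. The log2 difference of the lone library labelled p300KO_Tet2KO from the lone Tet2KO library was -0.60 for Csf1r, -0.73 for Irf8 and -0.69 for Ccl9. It was -2.56 for Ly86 and -1.47 for Pld4. Among the libraries with Xist and no Y-linked RNA, Tet2KO replicate 3 was above p300KO replicate 3 and both libraries labelled p300KO_Tet2KO for each of the 5 genes, with Csf1r at 123 CPM against 63.2, 52.0 and 44.6. No WT library was of this kind. A fit over all 12 libraries with a sex covariate is given as a description too, since the same values chose the genes. In it Csf1r and Pld4 stayed among the genes called higher in Tet2KO than in WT, 73 in all. All 5 stayed among those called lower in the libraries labelled p300KO_Tet2KO than in Tet2KO, 612 in all. The part of sex in the group differences was not tested beyond these fits and values.

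Sequence upstream of the start site is shown for 4 of the 5 genes. It was examined since the members share a pattern of expression and TET2 acts on cytosines of CG pairs. Csf1r was left out and no window of it was searched, so the motif and CG results below do not cover it. The windows come from RefSeq on GRCm38.p6 and run 5′ to 3′ on the strand of the gene, from 250 bases before the annotated start to 50 bases into the gene. They are chr8:120736108-120736407 for Irf8 and chr13:37345095-37345394 for Ly86, both on the plus strand, chr11:83578587-83578886 on the minus strand for Ccl9, and chr12:112760405-112760704 on the plus strand for Pld4. Capitals mark matches to the motifs searched.
Irf8: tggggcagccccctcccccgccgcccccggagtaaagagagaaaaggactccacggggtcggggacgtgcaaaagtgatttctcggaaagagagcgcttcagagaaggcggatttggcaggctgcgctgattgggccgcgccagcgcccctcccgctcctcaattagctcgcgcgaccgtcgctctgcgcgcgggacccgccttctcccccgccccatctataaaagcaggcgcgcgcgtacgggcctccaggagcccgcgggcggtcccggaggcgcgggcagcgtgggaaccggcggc
Ly86: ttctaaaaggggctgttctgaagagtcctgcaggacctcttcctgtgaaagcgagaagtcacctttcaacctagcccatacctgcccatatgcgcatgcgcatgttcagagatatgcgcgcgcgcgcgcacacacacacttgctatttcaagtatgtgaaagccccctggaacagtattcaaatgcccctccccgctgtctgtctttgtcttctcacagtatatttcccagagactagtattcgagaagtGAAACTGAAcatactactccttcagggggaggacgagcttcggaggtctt
Ccl9: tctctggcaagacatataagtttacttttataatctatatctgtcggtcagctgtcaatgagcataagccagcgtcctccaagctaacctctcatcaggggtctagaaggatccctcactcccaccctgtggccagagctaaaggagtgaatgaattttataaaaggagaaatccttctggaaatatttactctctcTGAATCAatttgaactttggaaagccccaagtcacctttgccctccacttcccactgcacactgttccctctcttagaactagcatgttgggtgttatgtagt
Pld4: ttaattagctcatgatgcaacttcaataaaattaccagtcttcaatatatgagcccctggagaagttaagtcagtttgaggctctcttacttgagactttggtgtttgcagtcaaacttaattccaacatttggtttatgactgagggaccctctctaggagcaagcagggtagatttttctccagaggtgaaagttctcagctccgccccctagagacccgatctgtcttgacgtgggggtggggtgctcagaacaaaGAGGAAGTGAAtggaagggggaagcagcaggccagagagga

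The motifs, searched on both strands, were GAGGAAG for PU.1 (the myeloid factor encoded by Spi1), GGAANNGAA for the composite site of ETS and IRF factors, GAAANNGAA for the interferon-stimulated response element, TTGCNNAA for C/EBP, TGTGGT for Runx and TGANTCA for AP-1. The Pld4 window held a PU.1 motif, found in 13.6% of 32851 windows, overlapping an ETS and IRF composite motif, found in 8.24%, with starts 9 and 11 bases downstream of the start site. The Ly86 window held a match to the short interferon-stimulated response element pattern, GAAACTGAA, found in 8.56% of windows. It begins at the RefSeq start base, which lies 137 bases inside the Gencode gene. Ccl9 had a match to the AP-1 pattern, TGAATCA with A at the base left free, found in 7.81% of windows, 53 bases before the start. Bases at N were left free, so a match is to the letters searched and no binding was measured. The Irf8 window shown held no match. C/EBP motifs are in 10.8% and Runx motifs in 16.8% of windows, and none of the 4 shown held either. CG pairs numbered 38 in the Irf8 window, 13 in Ly86, 3 in Pld4 and 2 in Ccl9, against a median of 7 over all windows. None of these motifs was common to the windows shown.

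Partners of the 5 genes were measured in the same libraries. Csf1, which encodes the main ligand of the CSF1 receptor, was 18.2 ± 2.75 CPM in WT and 18.4 ± 1.47 in Tet2KO, a log2 difference of 0.02 (95% interval -0.25 to 0.29). Il34, the other ligand, did not pass the filter, at no more than 0.368 CPM in any library. Spi1, which encodes PU.1, was 84.9 ± 3.45 CPM in WT and 93.0 ± 11.1 in Tet2KO, and the interval of its log2 difference was -0.08 to 0.34. Cebpa, a myeloid transcription factor gene, was 71.8 ± 8.11 and 77.2 ± 21.2 CPM in the same groups. Runx1, a transcription factor gene of stem and progenitor cells, differed by 0.40 ± 0.12 (SE, adjusted p = 0.177). None of these 4 tested partners passed the edgeR threshold in any of the 5 comparisons or the interaction.

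Cd180, which encodes RP105, the receptor that MD-1 binds, was 53.6 ± 3.90 CPM in WT and 44.9 ± 5.09 in Tet2KO (log2 difference -0.25 ± 0.11, adjusted p = 0.342). It was lower in p300KO, at 34.3 ± 1.61 CPM (-0.64 ± 0.11, adjusted p = 0.00605), and lower in the libraries labelled p300KO_Tet2KO, at 26.5 ± 2.69 CPM, than in WT (-1.02 ± 0.11, adjusted p = 0.00014) or in Tet2KO (-0.76 ± 0.11, adjusted p = 0.00205). The last call held when each of the 6 libraries compared was left out in turn.

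Ccl6, a chemokine gene on the same strand that ends 9245 bases from Ccl9, was 3.91 ± 1.59 CPM in WT and 3.63 ± 1.42 in Tet2KO, with an interval of the log2 difference of -1.15 to 0.91. Ccr1, a receptor that CCL9 binds, was 2.69 ± 0.43 CPM in WT and 1.87 ± 0.62 in Tet2KO (adjusted p = 0.563). Pld3, the paralog of Pld4 with a like exonuclease activity, was 19.2 ± 1.91 CPM in WT and 15.8 ± 1.87 in Tet2KO (adjusted p = 0.471). None of these partners of Ccl9 and Pld4 was called in either comparison with Tet2KO.

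Other genes of the monocyte and macrophage branch were taken as a list of 40, all tested. Against WT, 31 of the 40 were above 0 in Tet2KO with a median log2 difference of 0.47, where 50.1% of all genes were above 0 and the median of all was 0.00 (0.000519 before rounding). edgeR called 0 of the 40 higher and 0 lower, where 0.482% of all genes were called higher and 0.151% lower. At an unadjusted p under 0.05 there were 15 higher and 1 lower, limma-voom called 0, and the DESeq2 Wald test called 9 higher. Ly6c2, which encodes a surface marker of classical monocytes, was 98.8 CPM on average in Tet2KO with a range of 37.7 to 182, and 22.6 in WT with a range of 13.3 to 38.5 (log2 difference 2.15 ± 0.53, adjusted p = 0.106). Ccr2, the receptor that draws monocytes out of the marrow, was 54.5 ± 30.0 CPM against 17.3 ± 4.09 (1.66 ± 0.41, adjusted p = 0.102). Klf4, a transcription factor gene of monocytes, was 14.1 ± 1.91 CPM against 9.11 ± 7.08 (adjusted p = 0.591).

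In the libraries labelled p300KO_Tet2KO, 9 of the 40 were called lower than in Tet2KO and 0 higher, where 2.89% of all genes were called lower and 1.01% higher. The 9 were Ly6c2, Zeb2, Cd93, Tyrobp, F13a1, Mpeg1, Cx3cr1, Maf and Ms4a6c, and the median of the 40 was -0.70. Mpeg1, which encodes the pore-forming protein perforin-2 of phagocytes, was 160 ± 43.5 CPM in WT and 77.8 ± 35.7 in p300KO. It was 201 ± 55.5 CPM in Tet2KO and 43.9 ± 9.0 in the libraries labelled p300KO_Tet2KO (-2.20 ± 0.32, adjusted p = 0.00227). Cd93, a surface receptor gene also expressed in early progenitors, was 680 ± 21.6 against 345 ± 22.6 CPM (-0.98 ± 0.12, adjusted p = 0.000587), but was 654 ± 14.2 CPM in WT. Cd93 was also called lower in p300KO than in WT, at 372 ± 64.6 CPM (adjusted p = 0.00241). Zeb2, a transcription factor gene of the monocyte branch, was 354 ± 77.3 against 218 ± 47.2 CPM (-0.70 ± 0.17, adjusted p = 0.0417), with 225 ± 8.65 in WT. Mpeg1, Cd93 and Maf were also called lower in the libraries labelled p300KO_Tet2KO than in WT (adjusted p = 0.00259, 0.00043 and 0.00365). Of all genes, 4.92% were called lower there, so these falls were not only from the Tet2KO level. Of the 9 calls against Tet2KO, those of Mpeg1 and Cd93 were kept when each of the 6 libraries was left out in turn. Without p300KO_Tet2KO replicate 2 the number called lower than in Tet2KO was 4. Over the libraries without Xist RNA it was 2.

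Granulocyte genes had a median in the same direction in Tet2KO. Of 24 listed, 19 were tested, and their median log2 difference from WT was 0.97, with 14 above 0. edgeR called 0 of them, with 10 higher and 1 lower at an unadjusted p under 0.05, limma-voom called 1 lower, and DESeq2 called 3 higher and 1 lower. Prtn3 and Mpo, which encode proteins of primary granules, differed by 1.11 ± 0.27 (adjusted p = 0.0929) and 1.07 ± 0.27 (adjusted p = 0.114). The list also had a median of 1.01 in p300KO against WT and of 0.59 in the libraries labelled p300KO_Tet2KO against WT. Unlike that of the 5 genes, its median was thus above 0 in all 3 groups. Against Tet2KO, its median in the libraries labelled p300KO_Tet2KO was -0.40, with Gfi1 called lower. Its median interaction was -1.41, with 1 of 19 genes above 0, where the median of the 5 genes was -1.34. A fall from the Tet2KO level was therefore not particular to the 5 genes. The summed level of the 24 genes was 1724 to 2395 CPM in WT, 2090 to 3436 in p300KO, 2627 to 5531 in Tet2KO and 2172 to 2745 in the libraries labelled p300KO_Tet2KO. For the monocyte list the sums were 1952 to 2326, 1526 to 2006, 2201 to 3288 and 1339 to 1611 CPM in the same order. Both sums rest largely on a few abundant genes. Mpo alone was 1391 ± 251 CPM in WT and 2930 ± 1100 in Tet2KO. Cd93 was 654 ± 14.2 CPM in WT and 372 ± 64.6 in p300KO, where the median log2 difference of the monocyte list from WT was 0.01. In bulk RNA of a sorted gate, fewer cells of a type and less RNA per cell cannot be told apart.

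Of 24 tested genes for CSF1 receptor ligands and signalling, edgeR called 0 in Tet2KO against WT (2 higher and 2 lower at an unadjusted p under 0.05, 1 higher by DESeq2, 0 by limma-voom). The signalling genes Dok2, Inpp5d and Pik3r1 were called lower in the libraries labelled p300KO_Tet2KO than in Tet2KO. Pik3r1, a regulatory subunit of PI3-kinase, differed by -0.55 ± 0.10 (adjusted p = 0.00709) and kept its call when each of the 6 libraries was left out in turn. Dok2 and Inpp5d each lost their call in 4 of the 6 fits, with an adjusted p of up to 0.0973 and 0.0858 without p300KO_Tet2KO replicate 3. The same 3 genes were also called lower in p300KO than in WT (adjusted p = 0.0063 for Pik3r1, 0.0215 for Dok2 and 0.0366 for Inpp5d), where 2.85% of all genes were. There Dok2 and Inpp5d each lost the call in 6 of 6 fits with a library left out. Of 21 tested transcription factor genes of the monocyte and dendritic branch, 0 were called in Tet2KO against WT by edgeR, limma-voom or DESeq2, with 2 higher and 2 lower at an unadjusted p under 0.05. Between the libraries labelled p300KO_Tet2KO and Tet2KO, Irf9, Ikzf1, Id2, Tcf4 and Nfil3 were called lower. Ikzf1, which encodes the lymphoid and myeloid regulator Ikaros, differed by -0.59 ± 0.09 (adjusted p = 0.00319) and Nfil3 by -1.08 ± 0.20 (adjusted p = 0.0100), and these 2 kept their call in all 6 fits with a library left out. Irf9 lost its call in 6 of the 6, Tcf4 in 5 and Id2 in 4, with an adjusted p of up to 0.146 for Irf9 and 0.0979 for Id2 without p300KO_Tet2KO replicate 1 and 0.161 for Tcf4 without Tet2KO replicate 1. Of these genes, Ikzf1 alone was also called lower in p300KO than in WT (adjusted p = 0.00285). Its level was 485 ± 5.48 CPM in WT, 418.5 ± 30.3 in Tet2KO and 317 ± 29.4 in p300KO. With 0.482% of all genes called higher and 0.151% lower in Tet2KO against WT, a count near 0 is also the background for lists of this size.

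Among 25 tested genes for toll-like receptors and nucleic acid sensing, Tlr1 was called higher in Tet2KO, at 4.26 ± 1.57 CPM against 0.597 ± 0.405 in WT (2.96 ± 0.55, adjusted p = 0.0329). The call was lost in 3 of 6 fits that left out a library, with an adjusted p of 0.135 without Tet2KO replicate 1 and of 0.213 without WT replicate 1. Tlr1 was 0.860 ± 0.550 CPM in the libraries labelled p300KO_Tet2KO and was called lower there than in Tet2KO, with Cd180, Unc93b1 and Tlr7, while Irak1 was called higher. Of these, Cd180 and Tlr7 kept their call in all 6 fits with a library left out, and Irak1 lost it in 5, Tlr1 in 4 and Unc93b1 in 2, with an adjusted p of up to 0.0989 for Irak1 without Tet2KO replicate 2, 0.0965 for Tlr1 without p300KO_Tet2KO replicate 3 and 0.0847 for Unc93b1 without p300KO_Tet2KO replicate 1. Tlr7, a sensor of single-stranded RNA in endosomes, was 30.8 ± 4.52 CPM in WT, 18.1 ± 4.24 in Tet2KO, 10.3 ± 1.53 in p300KO and 3.45 ± 0.966 in the libraries labelled p300KO_Tet2KO. It differed by -2.42 ± 0.24 between the latter and Tet2KO (adjusted p = 0.000241). The pattern of Tlr7 was not that of Pld4, since it was lower in Tet2KO than in WT in its mean (adjusted p = 0.157).

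Of 21 tested chemokine and chemokine receptor genes, edgeR called 0 in Tet2KO against WT (2 higher and 3 lower at an unadjusted p under 0.05, 2 lower by DESeq2, 0 by limma-voom). Ccr7 and Cxcr4, receptors that guide cells to lymph nodes and retain them in marrow, were called lower in the libraries labelled p300KO_Tet2KO than in Tet2KO, by 2.65 ± 0.38 (adjusted p = 0.00211) and 0.93 ± 0.13 (adjusted p = 0.00211) on the log2 scale. Both were also called lower in p300KO than in WT (adjusted p = 0.00744 and 0.02465), a call that Cxcr4 lost in 4 of 6 fits with a library left out. Of 18 tested dendritic cell genes, edgeR called 0 in Tet2KO against WT (1 higher and 1 lower at an unadjusted p under 0.05, the same numbers by DESeq2, 0 by limma-voom). Cox6a2, Itgax, Runx2 and Flt3 were called lower in the libraries labelled p300KO_Tet2KO than in Tet2KO. Cox6a2, a gene of plasmacytoid dendritic cells, fell to 0.372 ± 0.194 CPM from 3.27 ± 1.03 (adjusted p = 0.00222) and kept its call in all 6 fits with a library left out. Runx2 lost its call in 5 of the 6, and Itgax and Flt3 each in 4, with an adjusted p of up to 0.0998 for Runx2 without Tet2KO replicate 1, 0.0906 for Itgax without p300KO_Tet2KO replicate 3 and 0.0662 for Flt3 without p300KO_Tet2KO replicate 1. Cox6a2 and Flt3 were also called lower in p300KO than in WT (adjusted p = 0.024 and 0.0119). Those calls were lost in 4 and 1 of 6 fits with a library left out.

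**Figure D3:**
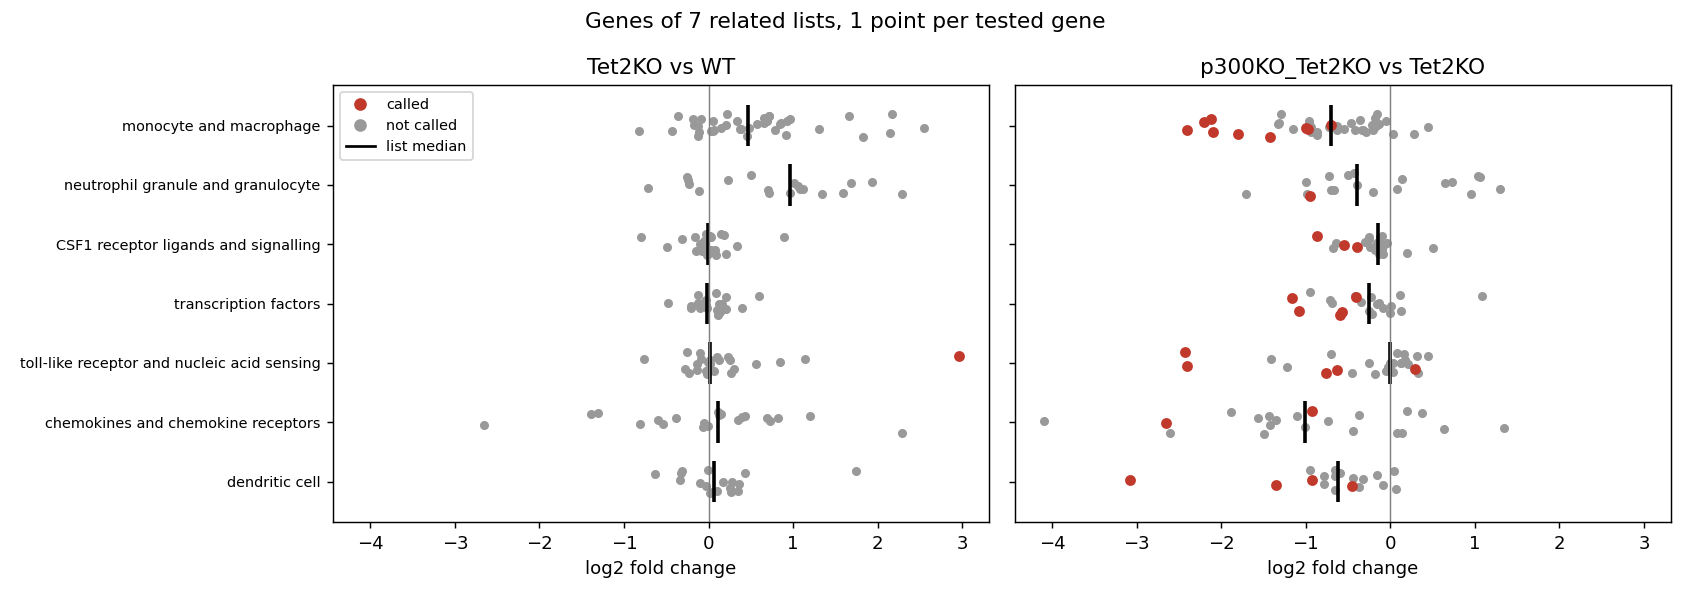
Log2 fold change (x axis) of each tested gene in 7 lists (rows) for Tet2KO vs WT (left) and p300KO_Tet2KO vs Tet2KO (right), with genes called by edgeR in red, others in grey and the list median as a black line. On the left Tlr1 is the only gene called, and on the right 9 monocyte and macrophage genes are called lower.

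Markers of other cells that could enter the gate were summed. The sums of 12 resident macrophage genes, 10 of them tested, were 34.3 to 43.5 CPM in WT, 16.4 to 25.1 in p300KO, 21.6 to 30.2 in Tet2KO and 16.4 to 18.7 in the libraries labelled p300KO_Tet2KO, so that Tet2KO lay under WT. The 8 B cell markers summed to 525 to 884 CPM in WT, 386 to 977 in Tet2KO and 705 to 2069 in the libraries labelled p300KO_Tet2KO, sums that rest mostly on Ighm. Without Ighm, left out after the sums were seen, WT was the highest group and the libraries labelled p300KO_Tet2KO had the lowest value, at 74.0 to 120 CPM in WT, 26.4 to 46.5 in p300KO, 35.2 to 41.9 in Tet2KO and 19.7 to 36.3 in the libraries labelled p300KO_Tet2KO. Markers of T and NK cells reached at most 85.8 CPM, of erythroid cells 207 and of megakaryocytes 364 in any library. The granulocyte sums given above were highest in Tet2KO replicate 3, which also had the highest Csf1r, Irf8 and Ly86, and their part in the values of the 5 genes was not tested.

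The genes most like the 5 were found by the correlation of log2 CPM with the mean z-score of the 5 over the 12 libraries, which share depth, sex-linked RNA and group, so that r is a description. The 10 with the highest r at a mean of at least 5 CPM were Rassf4 (r = 0.98), F13a1 (0.97), Aff1 (0.94), Tyrobp (0.94), Cx3cr1 (0.93), Tex2 (0.93), Themis2 (0.92), Tsga10 (0.92), Zeb2 (0.92) and L3mbtl3 (0.92). F13a1, Tyrobp, Cx3cr1 and Zeb2 belong to the monocyte list. Rassf4 was 58.4 to 63.3 CPM in WT, up to 63.6 in p300KO, 74.2 to 127 in Tet2KO and 44.9 to 49.8 in the libraries labelled p300KO_Tet2KO, with Tet2KO above every other library. F13a1, which encodes the A subunit of coagulation factor XIII and is expressed in monocytes, was 74.2 to 271 CPM in Tet2KO and up to 81.2 in p300KO, so these groups overlapped. Cx3cr1, the fractalkine receptor gene, was 10.5 to 26.4 CPM in Tet2KO and 6.63 to 13.3 in WT, which overlapped as well. Tyrobp, which encodes the signalling adaptor DAP12, was 30.0 to 50.7 CPM in Tet2KO and 18.5 to 22.0 in the libraries labelled p300KO_Tet2KO.

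**Figure D4:**
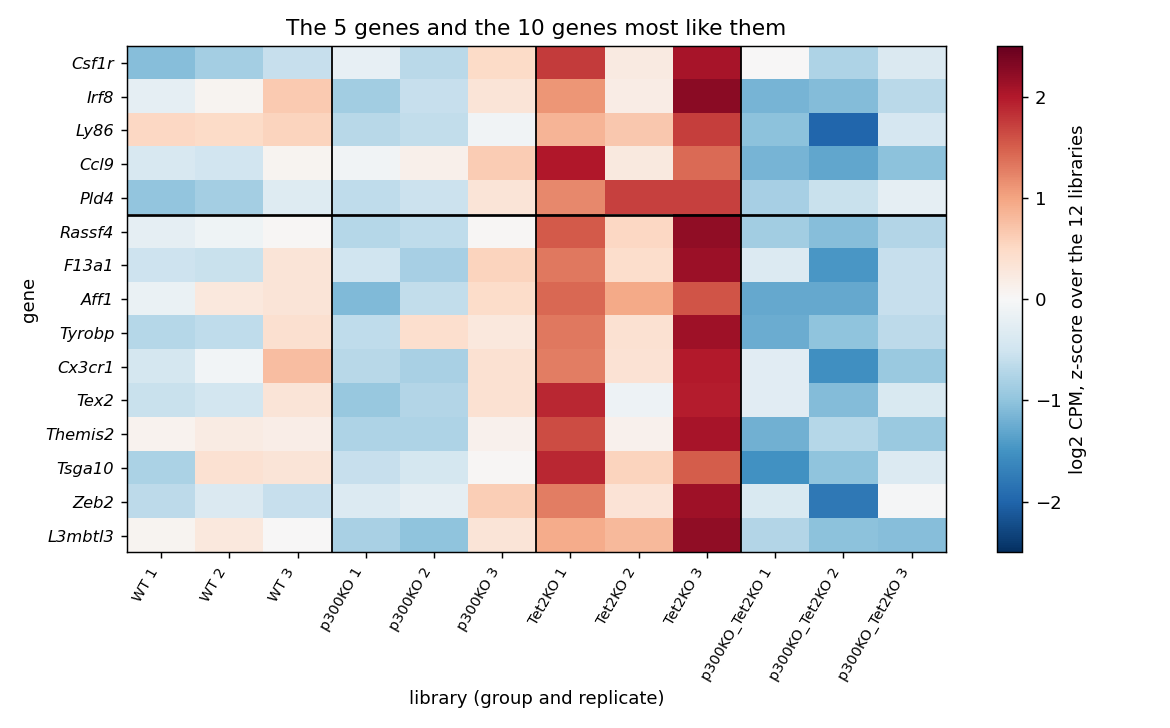
Log2 CPM as a z-score over the 12 libraries (colour, red high and blue low) of the 5 genes and the 10 genes most like them (rows) in each library (columns). Tet2KO replicates 1 and 3 are high in nearly every row, and Tet2KO replicate 2 is nearer to the other groups in most rows but not in Pld4, where it held 34.9 CPM.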

How the data were processed

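The authors depleted ribosomal RNA, made libraries with the Universal Plus mRNA-Seq kit and sequenced them as paired ends. They aligned the reads with STAR 2.6.0c and estimated genes with RSEM 1.3.0 on mm10, with a Gencode release not given in the sources used here. The deposited table holds their RSEM expected counts, with no normalization and no spike-in genes, so the spike-in factor of the study's own tests was not used. The study describes 3 independent biological replicates per genotype and mice of both sexes.

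Expected counts were rounded to whole numbers. In R 4.3.3, genes were filtered with filterByExpr of edgeR 4.0.16, scaled by TMM, and fitted over all 12 libraries with quasi-likelihood models of 1 mean per group (common biological coefficient of variation 0.203). Fold changes are on the log2 scale, SE is the fold change over the square root of F, intervals are 95%, tests are two-sided, and calls were made at 0.05 after Benjamini-Hochberg adjustment over all genes tested. Every adjusted p in the text comes from this fit, except those given for the same model with a library left out. With 3 against 3 libraries an exact permutation test of 1 gene cannot go below p = 0.1. CPM are TMM-scaled. Libraries with identical counts numbered 0. Whether counting used strand is not given in the sources used here, so overlapping antisense transcripts cannot be told apart.

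The members and gene lists were chosen with earlier results of these data known. The genes named are the 5 members, Ep300, Tet2, a fixed set of partners, up to 4 genes per list and comparison with the smallest p, and the 10 most like genes. Other list genes are named only as called, without values. F13a1, Rassf4, Cx3cr1 and Tyrobp were singled out among the like genes after their values were seen, as were Flt3 and Kit among the genes of the LSK gate. Gene positions are from Gencode vM21 (mm10), matched by identifier without version for 17743 of 17842 tested genes, and promoter windows are from RefSeq on GRCm38.p6. Alternatives were DESeq2 1.42.0 size factors and Wald test, limma-voom (limma 3.58.1), no filter, 1 CPM in 3 libraries, only the libraries compared, a replicate block, a sex covariate (how much Y-linked RNA a library lacked) and leaving out each library. A depth covariate and a fit over the 7 libraries without Xist RNA were chosen after seeing the data. The models were tested on simulated counts.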

Additional observations from a re-analysis of the deposited data

How the results depend on the processing

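The log2 fold changes of the 5 genes had 30 values in all, and none that was called changed sign under any alternative. Under the sex covariate 2 moved by more than the spread between replicates, Csf1r (-0.11) and Ly86 (-2.13) in p300KO_Tet2KO vs WT, and over the 7 libraries without Xist RNA 11 did. The Irf8 difference of Tet2KO from WT ran from -0.00 (-0.002166, without Xist RNA) to 0.89 (without Tet2KO replicate 2), and that of Pld4 from 1.38 to 1.59. Small values that were not called did change sign. Csf1r in p300KO_Tet2KO vs WT went from 0.28 to -0.11 under the sex covariate. In p300KO_Tet2KO vs p300KO, Csf1r went from -0.16 to 0.03 and Pld4 from -0.17 to 0.03 without p300KO replicate 3.

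Counts of called genes moved more. For Tet2KO vs WT, 113 genes became 497 with the DESeq2 Wald test, 170 with limma-voom, 227 with no filter, 181 with the depth covariate, 29 over the libraries without Xist RNA, 58 with only the libraries compared, and 36 to 209 when 1 library was left out. For p300KO_Tet2KO vs p300KO, 100 became 351 with DESeq2, 155 with no filter and 42 to 118 with 1 library left out. For p300KO_Tet2KO vs Tet2KO, 695 became 1252 with DESeq2, 122 without Xist RNA, 345 with only the libraries compared and 388 to 766 with 1 left out. For p300KO_Tet2KO vs WT, 1504 became 638 without Xist RNA and 873 to 1204 with 1 left out. For p300KO vs WT, 698 became 1219 with DESeq2, 346 without Xist RNA and 247 to 653 with 1 left out. The interaction had 0 genes called, 49 with DESeq2, 2 with no filter, 8 without Xist RNA and 0 to 14 with 1 left out, 14 being without WT replicate 3. Fits with fewer libraries have fewer degrees of freedom, and the cause of the other shifts was not tested.

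Monocyte and macrophage genes called higher in Tet2KO vs WT numbered 0, and 9 with DESeq2, 6 with no filter, 2 with the sex covariate, 4 with the depth covariate and 0 to 8 with 1 library left out, 8 being without Tet2KO replicate 2. Those called lower in p300KO_Tet2KO vs Tet2KO numbered 9, and 15 with the sex covariate, 2 without Xist RNA and 4 to 10 with 1 left out.

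Same-numbered libraries of different groups had correlations of their deviations between -0.152 and 0.135 over 18 pairs, with a median of 0.0345 against -0.0127 for different numbers. Of 12 libraries, 5 correlated best with one of their own number. No clear pairing by number was seen, but correlations this weak cannot exclude pairing or a shared batch. With a replicate block the interaction had 2 genes called and the monocyte list 5 called higher in Tet2KO vs WT, and the counts for the 5 comparisons were 158, 97, 597, 1349 and 656 in the order Tet2KO vs WT, p300KO_Tet2KO vs p300KO, p300KO_Tet2KO vs Tet2KO, p300KO_Tet2KO vs WT and p300KO vs WT.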
